A study of Homo sapiens with 6 samples.

Results

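Aminoacyl-tRNA synthetases load each tRNA with its amino acid, and 35 genes for these enzymes were followed here, chosen by symbol from the 79302 genes of the deposited table. They comprise 19 genes for enzymes of the cytosol and 16 for enzymes of the mitochondrion, whose symbols end in 2 (LARS2 beside the cytosolic LARS1). All 35 were found, and all 35 passed the filter on low counts that left 16755 genes for testing. RNA-seq was performed on 3 HCT116 libraries with an shRNA against GDPD5 (shGDPD5), which encodes a glycerophosphodiester phosphodiesterase, and on 3 with a control shRNA (shCtrl). HCT116 is a human colorectal cancer cell line. The cells of both groups were radioresistant HCT116 collected 6 h after irradiation with 4 Gy. Resistance, dose and time come from the published description and not from the labels. The published description also names HCT116, and the labels name the shRNA. The sources used here do not say which of the available GDPD5 shRNAs was sequenced or whether replicates were grown as separate cultures, so the p-values measure the spread between libraries, which may be technical.

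Cytosolic synthetases serve the ribosomes that translate nuclear messages, and several of them sit together with scaffold proteins in a multi-synthetase complex. A separate set, encoded in the nucleus and imported, serves the mitochondrial ribosomes that make a few subunits of the respiratory chain. Uncharged tRNA activates the kinase GCN2, which phosphorylates eIF2 and thereby favours translation of the transcription factor ATF4, and ATF4 is known to activate the genes of several cytosolic synthetases.

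GDPD5 itself was at 5.44, 5.55 and 5.19 CPM (counts per 1000000 counts of a library, after TMM normalization) in the shGDPD5 libraries and at 8.33, 11.6 and 9.75 CPM in the shCtrl libraries, without overlap (log2 fold change -0.88 ± 0.14 SE, adjusted p = 0.000116, edgeR). Library totals ranged from 16715447 to 18510670 counts. The shCtrl replicate 1 library stood apart from the other shCtrl libraries, at -28.3 on the second principal component against 14.8 and 13.3, so values without it are given where a call was lost or gained or a called value moved by over 1.5 times. The 13 mitochondrially encoded messages took 10.1% to 10.7% of the counts in shGDPD5 and 8.99% to 9.34% in shCtrl. The epithelial markers EPCAM, CDH1, KRT8, KRT18 and KRT19 were expressed in every library, and VIL1 was near 0. All 5 expressed markers were called lower in shGDPD5 (log2 fold changes -0.83 to -0.16), as were 30.1% of all tested genes. The KRT8 groups overlapped, with shCtrl replicate 1 at 1069 CPM and the shGDPD5 libraries at 1074, 1011 and 1075 CPM. Of 8 markers of leukocytes, endothelium and fibroblasts, 7 were at no more than 0.338 CPM in any library, while COL1A1 was at 20.3 to 23.5 CPM in shGDPD5 and 18.8 to 21.3 CPM in shCtrl. The part of these differences in the results on synthetases was not tested. In bulk RNA, fewer cells of a type and less RNA per cell cannot be told apart.

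Cytosolic and mitochondrial synthetase transcripts moved mostly in opposite directions. Of the 19 cytosolic genes, 13 were lower and 4 were higher in shGDPD5 at an adjusted p under 0.05, and 2 were not called. Of the 16 mitochondrial genes, 4 were lower and 11 were higher, and 1 was not called. The groups differed in a large part of the transcriptome. Of all tested genes, 30.1% were called lower, 29.7% higher and 59.7% in either direction. Among cytosolic members the shares were 68.4% lower and 21.1% higher, and among mitochondrial ones 25.0% lower and 68.8% higher. The median log2 fold change was -0.19 over the cytosolic genes and 0.25 over the mitochondrial genes, with 0.01 over all tested genes. Without shCtrl replicate 1, 13 cytosolic genes were lower and 5 higher, and 4 mitochondrial genes were lower and 10 higher. The same 13 cytosolic and 4 mitochondrial genes had every shGDPD5 library below every shCtrl library, a pattern that 32.4% of all tested genes showed, and the same 4 cytosolic and 11 mitochondrial genes had every shGDPD5 library above, as did 32.6% of all tested genes. Most changes were small. Different fold thresholds are named in the methods of the study. At an unadjusted p under 0.05 with a log2 fold change of at least 1 in size, only WARS1 and AARS1 were called among the 35, both lower, where 6.6% of tested genes were called lower and 5.38% higher. At an unadjusted p under 0.05 with a fold over 1.5 or below 0.5, a looser limit for rises than for falls, WARS1 and AARS1 were called lower (6.6% of tested genes) and VARS2 and CARS2 higher (13.6% of tested genes).

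**Figure D1:**
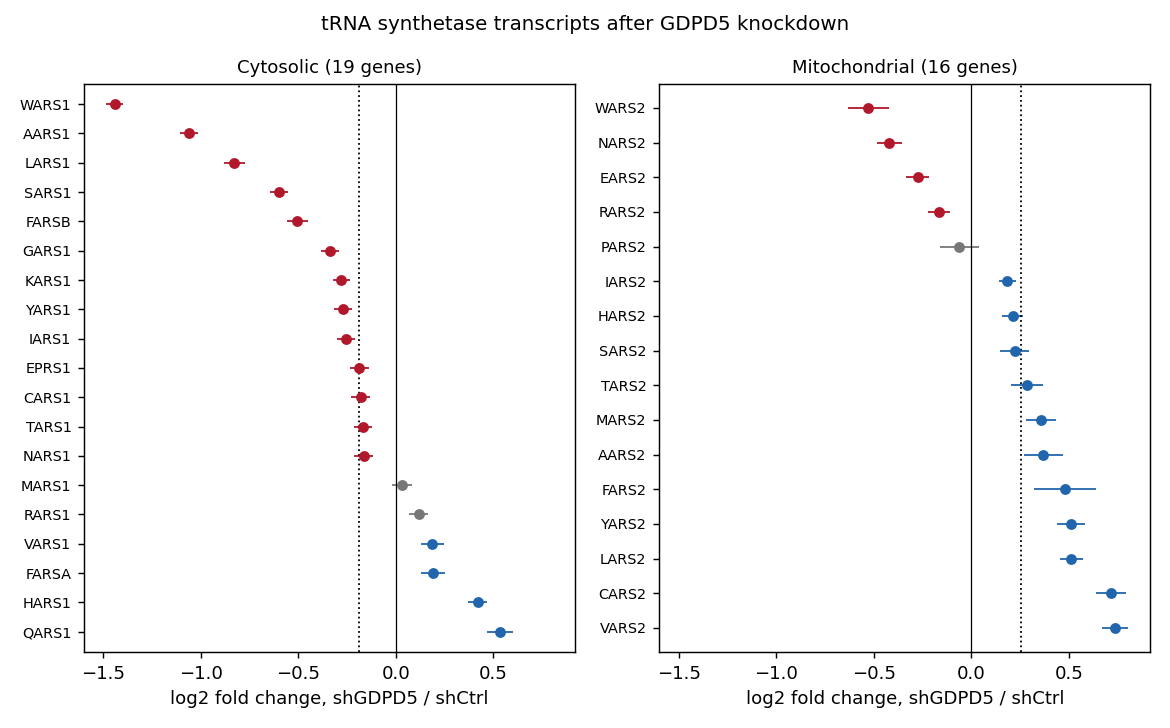
Log2 fold change in shGDPD5 over shCtrl for each cytosolic (left) and mitochondrial (right) synthetase gene, with its standard error from edgeR as a bar. Red points are lower and blue points higher at an adjusted p under 0.05, grey points were not called, and the dotted line is the median of the panel (-0.19 and 0.25). Most cytosolic genes lie left of 0 and most mitochondrial genes right of it, with WARS1 farthest left and VARS2 farthest right.

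WARS1, the cytosolic tryptophanyl-tRNA synthetase, fell the most. It was at 136.3, 138.3 and 137.5 CPM in shGDPD5, against 371.8, 371.0 and 377.1 CPM in shCtrl (log2 fold change -1.44 ± 0.04 SE, adjusted p = 6.7e-11). Its groups lay far apart, with the knockdown mean at 36.8% of the control mean. AARS1, the alanyl enzyme, was at 299.2, 298.5 and 300.1 CPM in shGDPD5 and at 593.4, 642.2 and 637.8 CPM in shCtrl (-1.06 ± 0.05, adjusted p = 1.21e-09), so that about equal shGDPD5 libraries stood at 47.9% of the control mean.

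LARS1, the leucyl enzyme, which is also known as a leucine sensor of the mTORC1 pathway, was at 242.4, 242.9 and 246.4 CPM in shGDPD5 and at 470.9, 413.9 and 415.6 CPM in shCtrl (-0.83 ± 0.05, adjusted p = 5.67e-08). Its highest value belonged to shCtrl replicate 1, and the other shCtrl libraries were still well above all shGDPD5 libraries. SARS1, the seryl enzyme, was at 228.6, 229.6 and 234.1 CPM in shGDPD5 and at 330.9, 362.2 and 355.6 CPM in shCtrl (-0.60 ± 0.05, adjusted p = 2.91e-07). Here shCtrl replicate 1 was the lowest control library, without overlap.

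FARSB encodes the beta subunit of the phenylalanyl enzyme. It was at 92.1, 97.1 and 88.0 CPM in shGDPD5 and at 136.4, 127.1 and 130.1 CPM in shCtrl (-0.51 ± 0.05, adjusted p = 4.29e-06). Its partner subunit FARSA moved the other way, at 61.1, 62.2 and 64.6 CPM in shGDPD5 and at 50.3, 57.6 and 57.0 CPM in shCtrl (0.19 ± 0.06, adjusted p = 0.0197). The FARSA groups were close, and its call was lost without shGDPD5 replicate 2 (adjusted p = 0.0519) or shGDPD5 replicate 3 (adjusted p = 0.0914), whereas FARSB was called lower with any library left out. Without shCtrl replicate 1 the FARSA fold change was 0.12 (adjusted p = 0.026).

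GARS1 and KARS1, the glycyl and lysyl enzymes, each encode the cytosolic and the mitochondrial form from a single gene. GARS1 was at 371.2, 364.0 and 379.3 CPM in shGDPD5 and at 491.4, 452.2 and 464.3 CPM in shCtrl (-0.34 ± 0.05, adjusted p = 3.51e-05). KARS1 was at 153.2, 155.8 and 154.4 CPM in shGDPD5 and at 183.9, 190.2 and 188.1 CPM in shCtrl (-0.28 ± 0.04, adjusted p = 0.000112). Both were lower without overlap. Gene counts do not tell the cytosolic from the mitochondrial transcript forms of either gene.

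Among the remaining cytosolic genes, 6 were lower by smaller amounts. They were YARS1 (log2 fold change -0.27), IARS1 (-0.26), the bifunctional glutamyl-prolyl enzyme EPRS1 (-0.19), CARS1 (-0.18), TARS1 (-0.17) and NARS1 (-0.17), with adjusted p-values of 0.000227 to 0.0104. The call for NARS1, the asparaginyl enzyme, was lost without shGDPD5 replicate 1 (adjusted p = 0.0507) and with library totals as the only scaling (adjusted p = 0.0676).

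The 4 cytosolic genes that were higher were led by QARS1, the glutaminyl enzyme. It was at 163.0, 177.0 and 167.2 CPM in shGDPD5 and at 105.6, 116.4 and 128.4 CPM in shCtrl (0.53 ± 0.07, adjusted p = 1.84e-05), with the shCtrl libraries more spread than the shGDPD5 ones. QARS1 has no mitochondrial counterpart in human cells, where mitochondrial tRNA for glutamine is first charged with glutamate and then amidated. HARS1, the histidyl enzyme, was at 119.5, 122.1 and 120.9 CPM in shGDPD5 and at 87.8, 89.1 and 94.1 CPM in shCtrl (0.42 ± 0.05, adjusted p = 9.24e-06). VARS1, the valyl enzyme, was at 152.5, 146.0 and 157.7 CPM in shGDPD5 and at 121.5, 139.8 and 139.2 CPM in shCtrl (0.19 ± 0.06, adjusted p = 0.0165). The VARS1 groups nearly met, and its call was lost without shGDPD5 replicate 1 (adjusted p = 0.0521) or shGDPD5 replicate 3 (adjusted p = 0.0846). Without shCtrl replicate 1 its fold change was 0.12 (adjusted p = 0.0161).

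MARS1 and RARS1, the methionyl and arginyl enzymes, were not called. MARS1 was at 282.9, 293.7 and 290.8 CPM in shGDPD5 and at 262.3, 292.3 and 295.2 CPM in shCtrl, with overlapping groups (0.03 ± 0.05, adjusted p = 0.64). RARS1 was at 152.7, 162.0 and 156.9 CPM in shGDPD5 and at 154.0, 140.8 and 140.5 CPM in shCtrl (0.12 ± 0.05, adjusted p = 0.0692). Its overlap came from shCtrl replicate 1, and without that library the fold change was 0.16 with an adjusted p of 0.00214.

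**Figure D2:**
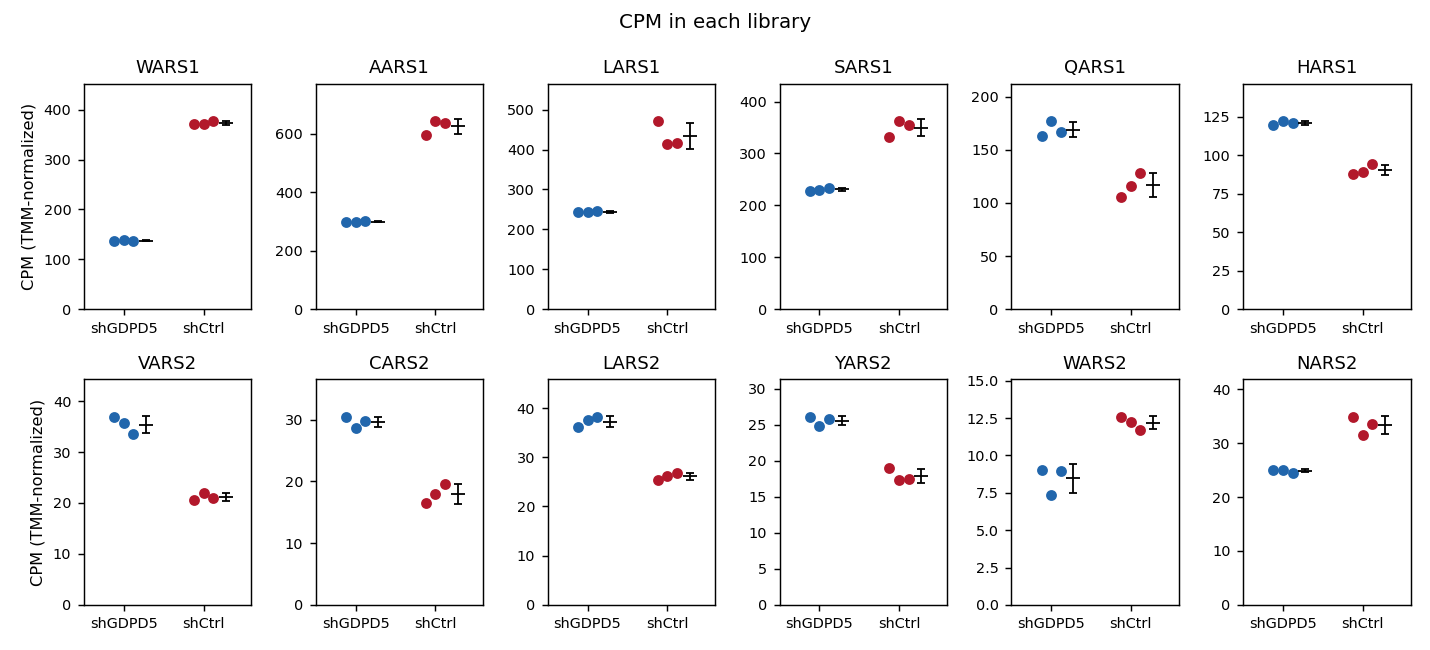
TMM-normalized CPM in each library (points) for 6 cytosolic genes (top row) and 6 mitochondrial genes (bottom row), shGDPD5 in blue on the left of each panel and shCtrl in red on the right, with the mean and SD of 3 libraries in black. Each vertical axis starts at 0 and has its own range. WARS1, AARS1, LARS1, SARS1, WARS2 and NARS2 were lower in every shGDPD5 library, and QARS1, HARS1, VARS2, CARS2, LARS2 and YARS2 were higher.

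The largest rises among mitochondrial synthetases were in VARS2 and CARS2. VARS2, the mitochondrial valyl enzyme, was at 36.9, 35.8 and 33.6 CPM in shGDPD5 and at 20.6, 22.01 and 21.1 CPM in shCtrl (0.74 ± 0.07, adjusted p = 1.03e-06). CARS2, the cysteinyl enzyme, which is also known to form cysteine persulfides, was at 30.5, 28.7 and 29.7 CPM in shGDPD5 and at 16.5, 17.9 and 19.7 CPM in shCtrl (0.72 ± 0.08, adjusted p = 4.95e-06). The knockdown means were 167% and 165% of the control means.

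LARS2, the mitochondrial leucyl enzyme, was at 36.1, 37.5 and 38.2 CPM in shGDPD5 and at 25.3, 26.1 and 26.8 CPM in shCtrl (0.51 ± 0.06, adjusted p = 1.14e-05). YARS2, the tyrosyl enzyme, was at 26.1, 24.8 and 25.8 CPM in shGDPD5 and at 18.98, 17.3 and 17.5 CPM in shCtrl (0.51 ± 0.07, adjusted p = 4.78e-05). Both were higher in all shGDPD5 libraries. The other 7 that were higher were FARS2 (0.48), AARS2 (0.37), MARS2 (0.36), TARS2 (0.29), SARS2 (0.22), HARS2 (0.21) and IARS2 (0.19), with adjusted p-values of 0.00139 to 0.0199. Of these, TARS2 lost its call without shGDPD5 replicate 2 (adjusted p = 0.0517), SARS2 without shGDPD5 replicate 1 (0.0848) or shCtrl replicate 2 (0.0600), and FARS2 without shGDPD5 replicate 2 (0.0593) or shCtrl replicate 1 (0.0588), where its fold change was 0.32. FARS2 was among the least expressed members, with 67 to 142 counts per library.

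WARS2 and NARS2 went the other way. WARS2, the mitochondrial tryptophanyl enzyme, was at 9.06, 7.37 and 8.97 CPM in shGDPD5 and at 12.6, 12.3 and 11.7 CPM in shCtrl (-0.53 ± 0.11, adjusted p = 0.000965), so both tryptophanyl enzymes were lower. NARS2, the asparaginyl enzyme, was at 25.1, 25.1 and 24.5 CPM in shGDPD5 and at 34.9, 31.6 and 33.5 CPM in shCtrl (-0.42 ± 0.06, adjusted p = 9.86e-05). Neither gene's groups overlapped.

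EARS2, the mitochondrial glutamyl enzyme that also charges the tRNA for glutamine, was at 31.0, 29.5 and 28.9 CPM in shGDPD5 and at 34.9, 35.8 and 37.4 CPM in shCtrl (-0.28 ± 0.06, adjusted p = 0.00191). RARS2, the arginyl enzyme, was at 43.8, 47.9 and 46.0 CPM in shGDPD5 and at 50.2, 51.8 and 52.3 CPM in shCtrl (-0.16 ± 0.06, adjusted p = 0.0247). The RARS2 call was lost under more of the alternatives than that of any other member, namely without shGDPD5 replicate 1 (adjusted p = 0.125), shGDPD5 replicate 3 (0.0739), shCtrl replicate 2 (0.0612) or shCtrl replicate 3 (0.0637), with DESeq2 (0.0563) and with library totals only (0.123). PARS2, the prolyl enzyme, was not called, at 8.94, 9.34 and 9.08 CPM in shGDPD5 and at 8.79, 10.3 and 9.46 CPM in shCtrl (-0.06 ± 0.10, adjusted p = 0.633).

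Several members share genomic positions with other genes, and whether counting used strand is not given. In GENCODE release 29 on GRCh38, 10 of the 35 share exonic bases with a protein-coding gene on the other strand and 3 with a protein-coding gene on the same strand. MARS1 shares 355 exonic bases with DDIT3, whose log2 fold change was -2.25, and VARS2 shares 1858 with GTF2H4 on the same strand, whose log2 fold change was 0.42 (adjusted p = 0.000624). HARS1 and HARS2 lie head to head with 84 bases between their RefSeq starts and share 437 exonic bases in GENCODE, and both were higher, by 0.42 and 0.21 on the log2 scale. Pseudogenes are named after 11 of the 35, KARS1 and WARS1 among them, and their reads could be assigned either way. Values of these genes are uncertain to that extent.

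Each mitochondrial gene was then set against the cytosolic gene for the same amino acid as a log2 ratio of CPM within each library, in which the scaling of a library cancels apart from the prior count. EARS2 and PARS2 were both set against EPRS1, and FARS2 against FARSA and FARSB, giving 17 pairs of which some share a gene. The ratio of cytosolic to mitochondrial transcript was lower in shGDPD5 for 13 pairs, 11 of them without overlap between the groups, and higher for 4, 3 of them without overlap. Among all tested single genes, 32.4% were lower and 32.6% higher without overlap. The share among arbitrary pairs of genes was not computed. The median difference over the pairs was -0.45. With 3 libraries against 3 the two-sided exact permutation test cannot go below p = 0.1, which the 14 pairs without overlap reached (0.121 after adjustment over the 17 pairs), so no pair could pass the threshold.

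For alanine the log2 ratio of AARS1 to AARS2 was 4.51, 4.40 and 4.68 in shGDPD5 and 5.93, 5.99 and 5.93 in shCtrl, a difference of -1.42. For leucine the log2 ratio of LARS1 to LARS2 was 2.74, 2.69 and 2.69 in shGDPD5 and 4.21, 3.98 and 3.95 in shCtrl, a difference of -1.34. In both pairs the cytosolic gene was lower and the mitochondrial gene higher. The same opposite movement, each gene past the test, was seen for cysteine (ratio difference -0.90), serine (-0.82), tyrosine (-0.78), threonine (-0.45) and isoleucine (-0.44), and for FARSB with FARS2 (-1.002). For tryptophan both genes fell, and the ratio of WARS1 to WARS2 was still lower by a difference of -0.92, while for valine both genes rose and the difference was -0.55. In the methionine pair, where MARS1 was not called, the difference was -0.33.

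The 3 pairs whose ratio was higher without overlap were histidine, asparagine and arginine. The log2 ratio of HARS1 to HARS2 was 1.38, 1.35 and 1.30 in shGDPD5 and 1.07, 1.11 and 1.23 in shCtrl, where both genes rose. The log2 ratio of NARS1 to NARS2 was 3.89, 3.94 and 3.92 in shGDPD5 and 3.68, 3.66 and 3.64 in shCtrl, where both genes fell. The log2 ratio of RARS1 to RARS2 was 1.80, 1.76 and 1.77 in shGDPD5 and 1.62, 1.44 and 1.42 in shCtrl. The groups overlapped for FARSA with FARS2 (difference -0.31, p = 0.2), EPRS1 with PARS2 (-0.13, p = 0.3) and EPRS1 with EARS2 (0.09, p = 0.3) in the same exact permutation test.

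**Figure D3:**
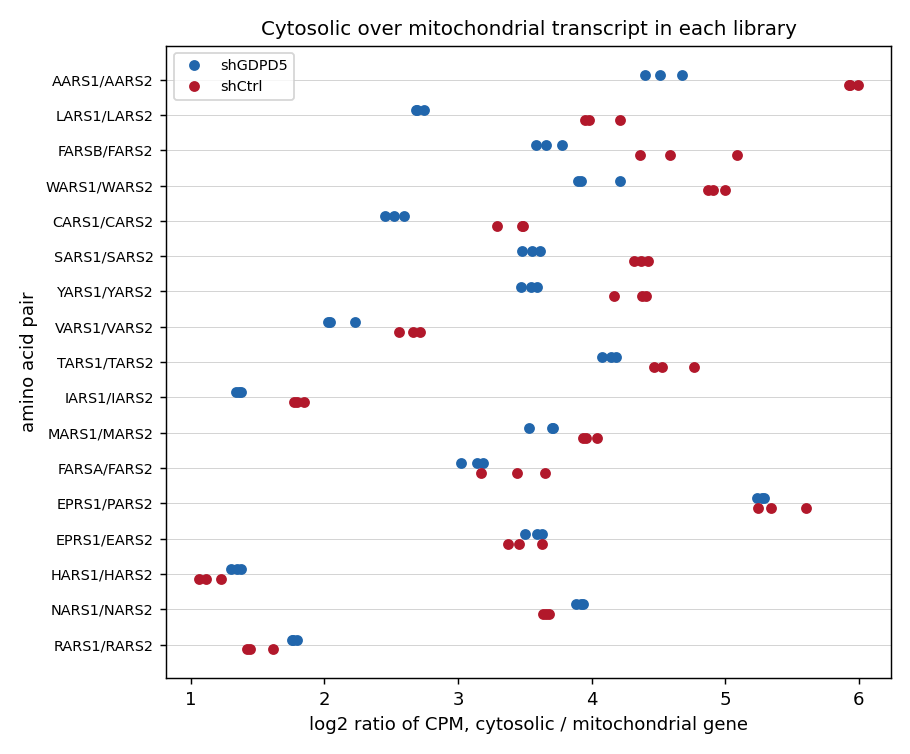
Log2 ratio of cytosolic to mitochondrial transcript (CPM, prior count of 2) for 17 amino acid pairs in each library, shGDPD5 in blue above shCtrl in red for each pair, ordered by the difference between the groups. In 11 pairs all shGDPD5 points lie left of all shCtrl points, from AARS1/AARS2 at the top (difference -1.42) to MARS1/MARS2 (-0.33), and in the lowest 3 pairs they lie right of them.

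Set on a common scale of CPM per kb of the annotated principal transcript, the 19 cytosolic genes summed to 1425, 1455 and 1449 in shGDPD5 and to 1821, 1809 and 1827 in shCtrl. The 16 mitochondrial genes summed to 200.9, 202.5 and 201.2 in shGDPD5 and to 178.7, 177.9 and 182.2 in shCtrl. The ratio of the sums was thus 7.10 to 7.20 in shGDPD5 and 10.03 to 10.19 in shCtrl. The sums weigh highly expressed genes most and count GARS1 and KARS1 as cytosolic. The largest falls were in AARS1 (mean of 179.6 CPM per kb in shCtrl and 86.1 in shGDPD5), WARS1 (120.7 and 44.4) and SARS1 (188.8 and 124.6). In contrast, 4 cytosolic genes were called higher. In the shCtrl libraries single cytosolic genes ranged from 30.3 (FARSA) to 188.8 (SARS1) CPM per kb and mitochondrial genes from 2.59 (AARS2) to 49.9 (IARS2). These levels rest on annotated lengths, and the transcript forms present in these cells were not measured.

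In both structural classes, which differ in the fold of their catalytic domain, cytosolic genes were more often lower and mitochondrial genes more often higher. Of all tested genes, 30.1% were called lower and 29.7% higher. Of the 9 cytosolic class I genes 5 were lower (55.6%) and 2 higher (22.2%). Of the 9 cytosolic class II genes 7 were lower (77.8%) and 2 higher (22.2%), EPRS1 holding a domain of each class. Of the 9 mitochondrial class I genes 3 were lower (33.3%, near the share of all tested genes) and 6 higher (66.7%). Of the 7 mitochondrial class II genes 1 was lower (14.3%) and 5 higher (71.4%). Among the 7 members that belong to the multi-synthetase complex, 4 were lower (57.1%), 1 was higher (14.3%) and 2 were not called. Their median log2 fold change was -0.19. Of the 12 other cytosolic genes 9 were lower (75.0%) and 3 higher (25.0%), with a median of -0.23. Whether these subgroups differ was not tested. Of the 3 scaffold proteins of the complex, AIMP2 (log2 fold change -0.43, adjusted p = 0.000549) and EEF1E1 (-0.38, adjusted p = 5.38e-05) were lower, while AIMP1 was not called (-0.08, adjusted p = 0.17).

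Of 9 other genes that take part in charging or delivering tRNA, 6 were lower and 1 was higher (66.7% and 11.1%, against 30.1% and 29.7% of all tested genes). Their median log2 fold change was -0.22. Leaving out shCtrl replicate 1 or any other single library gave 5 lower, as did DESeq2 and the per-gene test on log2(CPM + 1). XPOT, the exportin that carries tRNA out of the nucleus, was at 251.8, 257.7 and 250.8 CPM in shGDPD5 and at 500.9, 454.0 and 452.1 CPM in shCtrl (-0.89 ± 0.05, adjusted p = 1.38e-08). PSTK, the kinase that acts on seryl-tRNA on the way to selenocysteine, was lower (log2 fold change -1.05, adjusted p = 1.66e-05). GATB, a subunit of the mitochondrial amidotransferase that completes glutaminyl-tRNA, was higher (log2 fold change 0.45, adjusted p = 0.000346). The other subunits of that enzyme, named after their values were seen, went otherwise, as QRSL1 was lower (-0.19, adjusted p = 0.016) and GATC was not called (0.04, adjusted p = 0.537). SEPSECS, which completes selenocysteinyl-tRNA after PSTK, was lower (log2 fold change -0.32, adjusted p = 0.00113).

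Of 15 genes of the ATF4 response other than synthetases, 13 were lower (86.7%, against 30.1% of all tested genes). The other 2 were not called (SHMT2 and VLDLR). By edgeR 0 were higher, against 29.7% of all tested genes, and 0 were at an unadjusted p under 0.05 or with DESeq2. The median log2 fold change was -0.93. VLDLR, at 6 to 20 counts per library, was called higher without shGDPD5 replicate 3. DDIT3, which encodes the transcription factor CHOP, was at 13.3, 15.4 and 14.7 CPM in shGDPD5 and at 66.0, 72.7 and 67.8 CPM in shCtrl (-2.25 ± 0.07, adjusted p = 1.18e-10). ATF3, a stress-induced transcription factor, was lower (log2 fold change -1.89, adjusted p = 9.93e-11), TRIB3, a pseudokinase induced by CHOP, was lower (-1.62, adjusted p = 3.4e-10), and PSAT1, an enzyme of serine synthesis, was lower (-1.08, adjusted p = 4.55e-10). ATF4 itself, whose control is largely translational and which was named after its value was seen, was lower (-0.18, adjusted p = 0.00353).

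Of 6 genes for the sensing of uncharged tRNA and the control of eIF2, 2 were lower and 2 higher, shares of 33.3% each that are near those of all tested genes (30.1% and 29.7%). Without shCtrl replicate 1, 3 were higher. PPP1R15A, the stress-induced subunit that directs dephosphorylation of eIF2, was lower (-1.26, adjusted p = 2.45e-09), as was EIF2S1, the eIF2 alpha subunit (-0.29, adjusted p = 0.000332). EIF2B5, a subunit of the exchange factor for eIF2, was higher (0.57, adjusted p = 2.53e-06), as was GCN1, the ribosome-bound partner of GCN2 (0.45, adjusted p = 7.74e-06). EIF2AK4, which encodes GCN2 and was named after its value was seen, was not called (0.003, adjusted p = 0.967), with overlapping groups.

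ATF4 acts through C/EBP-ATF response elements, and the core of this element was searched as TGATGNAA on both strands of RefSeq promoter windows (GRCh38.p14, 250 bases before to 50 after each gene's start). A window was listed for 30 of the 35 members, 16 cytosolic and 14 mitochondrial. The core was present in 6 of 16 cytosolic windows and 1 of 14 mitochondrial windows, and in 3.62% of the 35116 windows of all genes. The matches are shown because all 6 cytosolic genes carry the same 8 bases, TGATGCAA or its complement TTGCATCA, while the mitochondrial gene YARS2 carries another version. Capitals mark the core, each line reads 5′ to 3′ along the gene's own strand, and the positions are those of the printed bases.
AARS1, chr16:70289675-70289704, minus strand: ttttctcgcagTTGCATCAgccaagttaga
CARS1, chr11:3057407-3057436, minus strand: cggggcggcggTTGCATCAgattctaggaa
IARS1, chr9:92293692-92293721, minus strand: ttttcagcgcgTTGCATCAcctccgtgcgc
MARS1, chr12:57488053-57488082, plus strand: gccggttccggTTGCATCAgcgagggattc
NARS1, chr18:57621804-57621833, minus strand: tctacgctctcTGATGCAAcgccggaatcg
TARS1, chr5:33440956-33440985, plus strand: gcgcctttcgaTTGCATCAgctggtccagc
YARS2, chr12:32756076-32756105, minus strand: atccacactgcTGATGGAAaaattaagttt

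Of the 6 cytosolic genes with the core, 5 were lower (AARS1, CARS1, IARS1, NARS1 and TARS1) and MARS1 was not called, with a median log2 fold change of -0.18. Of the 10 cytosolic genes with a listed window and no match, 6 were lower and 3 higher, with a median of -0.23 and WARS1 and SARS1 among those lower. For comparison, 68.4% of the 19 cytosolic genes and 30.1% of all tested genes were lower. The core began 187 bases before the start in AARS1, 2 to 13 bases before it in CARS1, MARS1 and IARS1, and after it in TARS1 and NARS1. A match is a description of the sequence and not evidence of binding.

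**Figure D4:**
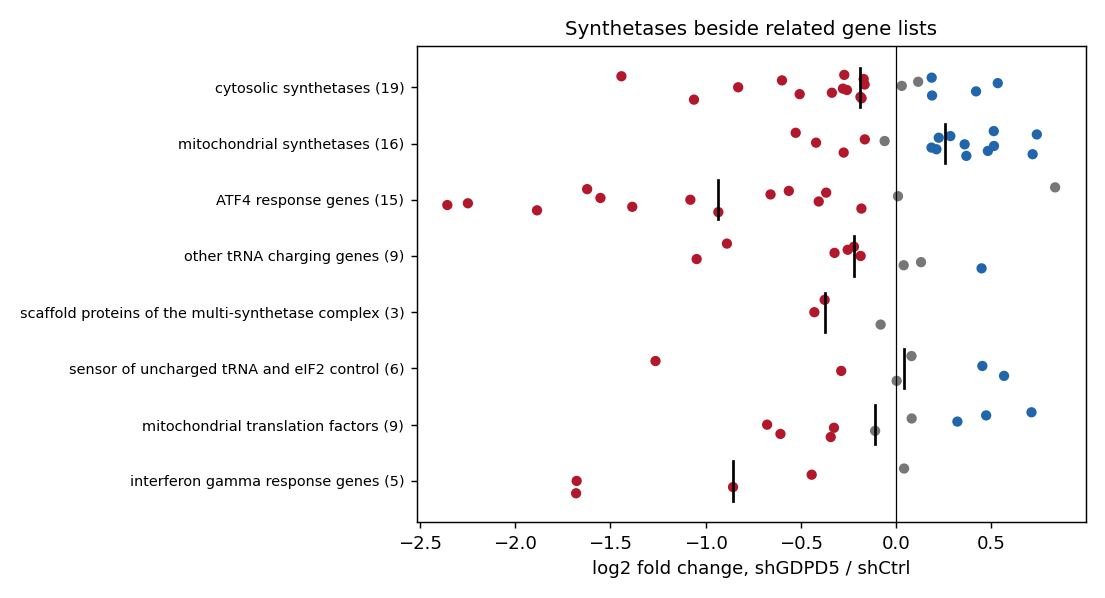
Log2 fold change in shGDPD5 over shCtrl of each tested gene (points) in the synthetase groups and in 6 related gene lists, with the number of tested genes in brackets and the median as a black bar. Red is lower, blue higher and grey not called at an adjusted p under 0.05. The ATF4 response genes (median -0.93) reach farther left than the cytosolic synthetases (-0.19), and the mitochondrial synthetases have the only median above 0.2 (0.25).

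WARS1 is also known as a gene induced by interferon gamma. Of 7 genes of that response, 5 were tested. Of these, 4 were lower (80%, against 30.1% of all tested genes) and 1 was not called. With DESeq2, or with at least 10 counts in every library, 3 were lower. IRF9, a subunit of an interferon-activated transcription factor, was at 8.01, 11.1 and 9.53 CPM in shGDPD5 and at 26.7, 33.4 and 31.8 CPM in shCtrl (-1.68 ± 0.12, adjusted p = 1.1e-07). IRF1, a transcription factor induced by interferon gamma, was at 12.2, 13.8 and 11.8 CPM in shGDPD5 and at 22.8, 23.1 and 22.6 CPM in shCtrl (-0.86 ± 0.08, adjusted p = 1.99e-06). Neither gene's groups overlapped. GBP2, an interferon-induced GTPase, was lower at 4 to 23 counts per library (-1.68, adjusted p = 0.00116), as was PSMB9, a subunit of the immunoproteasome (-0.44, adjusted p = 0.0134). The gamma-activated site TTCNNNGAA, an element of interferon-responsive promoters, was present in 2 of 16 cytosolic and 2 of 14 mitochondrial windows and in 7.66% of all windows, and the listed window of WARS1 held no match.

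Motifs tied to nuclear genes for mitochondrial proteins and to MYC were searched in the same way. The NRF1 core GCATGCGC was present in 0 of 16 cytosolic and 2 of 14 mitochondrial windows (MARS2 and YARS2, both higher) and in 3.05% of all windows. The E-box CACGTG was present in 1 of 16 cytosolic windows (IARS1) and 3 of 14 mitochondrial windows (CARS2, EARS2 and MARS2), and in 7.26% of all windows. Of the last 3, CARS2 and MARS2 were higher and EARS2 was lower. For comparison, 68.8% of the 16 mitochondrial genes were higher and 25.0% lower, against 29.7% and 30.1% of all tested genes. Whether either motif goes with the direction of change was not tested.

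Of 9 genes for factors of mitochondrial translation, 4 were lower and 3 higher (44.4% and 33.3%, against 30.1% and 29.7% of all tested genes), with a median log2 fold change of -0.11. Leaving out shCtrl replicate 1 gave 5 lower. Whether this list differs from the mitochondrial synthetases was not tested. TUFM, the mitochondrial elongation factor that delivers charged tRNA to the ribosome, was at 246.2, 257.6 and 243.5 CPM in shGDPD5 and at 132.5, 158.6 and 165.5 CPM in shCtrl (0.71 ± 0.07, adjusted p = 2.59e-06), and its exchange factor TSFM was higher (log2 fold change 0.47, adjusted p = 7.47e-05). GFM2, which acts in ribosome recycling, was lower (log2 fold change -0.61, adjusted p = 2.92e-06), and the initiation factor MTIF3 was lower (-0.68, adjusted p = 6.88e-06).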

How the data were processed

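RNA-seq of 3 shGDPD5 and 3 shCtrl HCT116 libraries was analysed. Per gene, the authors deposited estimated counts in a single table, in which 370 rows have no Ensembl identifier. How reads were aligned, to which build, and counted, with or without strand, is not given in the sources used here. Groups and columns were taken from the sample labels. For testing they were rounded to whole numbers (largest change 0.5). Genes passed the default filter of edgeR 4.0.16 (minimum count of 10, R 4.3.3), and TMM normalization and the quasi-likelihood test were applied to all 16755 genes, with Benjamini-Hochberg adjustment over all of them (n = 3 libraries per group, common biological coefficient of variation 0.0555). The script was tested on simulated data. Log2 CPM for pair ratios used a prior count of 2.

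The members, related lists and motifs were chosen with earlier results of these data known. Full values are given for the 6 lower and 4 higher cytosolic and the 4 lower and 4 higher mitochondrial genes of largest fold change among those called, for WARS1, GARS1, KARS1 and QARS1, and of each list for up to 4 genes of smallest adjusted p. The alternatives were RLE, upper quartile and total-count scaling, DESeq2 1.42.0, limma-voom (limma 3.58.1), a per-gene test on log2(CPM + 1), other filters and thresholds, a replicate block, each library left out, GARS1 and KARS1 left out, and another prior count. Promoter sequences are from RefSeq, GRCh38.p14. Some genes of the related lists are not reported here.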

Additional observations from a re-analysis of the deposited data

How the results depend on the processing

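No member changed its direction past the threshold under any alternative run. With RLE factors, limma-voom, at least 10 counts in every library and the replicate block, all 35 calls were as reported, the block giving 13 lower and 4 higher cytosolic genes and 4 lower and 11 higher mitochondrial genes, medians of -0.19 and 0.25 and 13 pairs with a lower ratio. Same-numbered libraries did not deviate together from their group means (correlations of -0.07, -0.05 and -0.04). Whether they were prepared together is not stated in the sources used here, and such correlations cannot exclude it. Library totals as the only scaling moved the median of all genes to 0.07, the cytosolic median to -0.13 and the mitochondrial median to 0.31. Of the other tRNA charging genes, 2 were then higher and 4 lower. The per-gene test called 2 cytosolic genes higher, as did an adjusted p under 0.01. At an unadjusted p under 0.05 with a log2 fold change of at least 1 in size, 0 cytosolic genes were higher and 2 lower, and 0 mitochondrial genes were higher and 0 lower. With a fold over 1.5 or below 0.5 instead, chosen after seeing the data, 0 cytosolic genes were higher and 2 lower, and 2 mitochondrial genes were higher and 0 lower. With each library left out in turn, the cytosolic genes called higher numbered 2 (without shGDPD5 replicate 3) to 5 and those called lower 12 to 13, and the mitochondrial ones 9 to 11 higher and 3 to 4 lower. The cytosolic median then ranged from -0.22 to -0.18, the mitochondrial median from 0.23 to 0.27, and the difference between them from -0.49 to -0.43. The ATF4 response genes called higher numbered 0 to 1, VLDLR being called without shGDPD5 replicate 3. Calls lost under other tools or scalings were RARS2 and SARS2 with DESeq2, SARS2 without a filter, NARS1 and RARS2 with library totals, and FARSA, VARS1, NARS1 and FARS2 with the per-gene test, and RARS1 was called higher with upper quartile factors (adjusted p = 0.0432) and library totals (0.00873). With 67 to 263 counts per library, FARS2, PARS2, WARS2 and AARS2 have the least precise fold changes among the members, with standard errors of 0.10 to 0.16. The causes were not tested.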
